A study of Mus musculus with 42 samples.

Results

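A module of 35 genes for proximal tubule transport and gluconeogenesis was followed across 42 whole-kidney RNA sequencing libraries. The members were chosen by gene symbol and with earlier results of these data known. All 35 were found among the 54532 genes of the tables of each of 3 cohorts. They comprise the transcription factor Hnf4a, 29 transport and uptake genes and 5 metabolic enzymes.

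The kidneys came from C57BL/6 mice with inactivation of Tsc2, whose product restrains the growth kinase complex mTORC1, of Tfeb, a transcription factor of lysosomal genes, or of both genes (double knockout, DKO). In the first cohort the whole-body, tamoxifen-inducible Cre line CaggCreERT2 recombined Tsc2 fl/fl, Tfeb fl/fl or both alleles, and the controls were CaggCreERT2-positive mice with wild-type Tsc2. All of these pups, the controls included, received tamoxifen through the milk of their mothers, and kidneys were taken on postnatal day 30. In the second cohort KspCre, driven by the cadherin 16 promoter in tubular epithelium, recombined the same floxed alleles, the controls lacked Cre, and kidneys were taken on day 50. The third cohort held controls, Cre-negative in the paper, and KspCre Tsc2 KO and DKO mice. They were treated with vehicle (DMSO in the library names) or with rapamycin, an inhibitor of mTORC1. Rapamycin was given at 1 mg/kg by intraperitoneal injection 3 times per week from day 25, for 11 injections, and kidneys were taken on day 50. The vehicle groups are labelled with 11 injections from day 25 as well. Each of the 14 groups held 3 biological replicates. The libraries were made from a piece of whole kidney and hold every cell type of it, so that the unrecombined cells of a kidney are measured together with the recombined ones, and fewer cells of a type cannot be told apart from less RNA per cell.

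The proximal tubule reclaims most of the filtered glucose, amino acids, phosphate, bicarbonate and protein, and it secretes organic anions, organic cations and urate. Transporters of its brush border take solutes up from the filtrate, and others of the basolateral membrane pass them to the blood or load the cell with drugs and metabolites for secretion. Together with the liver, the proximal tubule makes new glucose from lactate, glutamine and other precursors. Its mature state is maintained by nuclear receptors and homeodomain factors, among them HNF4A and the HNF1 proteins.

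Reads counted on genes amounted to 14926050 to 22807605 per library. Pairs of replicates of a group gave a chi-square per gene of 16.4 to 87.5, where counting error alone gives about 1. The floxed gene was checked first. Tsc2 was at 10.6, 10.6 and 9.81 FPKM in the CaggCreERT2 controls and at 4.06, 4.14 and 4.55 in the Tsc2 KO, and it was called lower in all 3 Tsc2 KO comparisons. Tfeb was at 5.30, 4.57 and 8.02 FPKM in the CaggCreERT2 controls and at 3.64, 3.73 and 2.73 in the Tfeb KO, without overlap, but the difference did not pass the test (adjusted p = 0.394). In the KspCre cohort Tfeb was at 5.85, 6.05 and 6.24 FPKM in the controls and at 4.32, 4.80 and 5.25 in the Tfeb KO, a log2 fold change of -0.33 that was not called (adjusted p = 0.627).

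There are 3 limits of the libraries that bear on the results. The count and FPKM tables of the CaggCreERT2 cohort name 4 libraries differently, and for 2 of these the genotype changes. The names of the FPKM table are used here. Under the names of the count table a library with a Tsc2 level of 10.2 FPKM would be a DKO and one with 5.26 a Tfeb KO. By expression of Xist and Y-linked genes, the CaggCreERT2 controls were 3 males, the Tsc2 KO 2 females and 1 male, the Tfeb KO 3 females and the DKO 1 female and 2 males, whereas all KspCre libraries were female. KspCre DKO replicate 1 stood apart, with a summed macrophage marker level of 862 FPKM against 81.9 and 110.3 in the other DKO libraries. Its summed T and B cell marker level was 47.3 FPKM, against 5.48 and 11.3 in those libraries.

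In every control group all 35 members were expressed, with group means from 18.3 FPKM for Slc17a3 in the CaggCreERT2 cohort to 1539 FPKM for Miox, myo-inositol oxygenase, in the same cohort. Miox was the most abundant member of all 3 control groups, at 1539 ± 78.5 FPKM (SD, n = 3) in the CaggCreERT2, 1329.7 ± 145 in the KspCre and 1207 ± 146 in the vehicle-treated KspCre controls. The phosphate transporter Slc34a1 followed in the CaggCreERT2 cohort with 1201 ± 86.1 FPKM. The gluconeogenic enzyme Pck1 was at 614 ± 140.0 FPKM there and at 1274 ± 648 in the KspCre controls, where its replicates ranged from 607 to 1901. Brush border, basolateral and enzyme genes of the proximal tubule were thus all present. Levels of different genes are compared per length, as FPKM, and levels of different cohorts come from tables that were normalized separately.

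Read as 1 pool, the 35 members held 2.35% to 2.57% of all gene counts in the CaggCreERT2 controls and 1.03% to 1.54% in the Tsc2 KO. Among KspCre kidneys the share was 2.66% to 3.28% in the controls and 1.46% to 2.44% in the Tsc2 KO. In the vehicle-treated kidneys it was 2.98% to 3.03% in the controls and 0.810% to 1.24% in the Tsc2 KO. In each cohort all 3 Tsc2 KO libraries lay below all 3 controls. The vehicle-treated DKO held 1.81%, 2.78% and 2.83%, and the rapamycin-treated Tsc2 KO 2.63% to 2.89%, both ranges lying above that of the vehicle-treated Tsc2 KO. The CaggCreERT2 DKO, at 1.94% to 2.39%, also lay above the Tsc2 KO of its cohort. In the KspCre cohort without vehicle the DKO held 1.41%, 2.19% and 2.57% and overlapped with the Tsc2 KO.

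**Figure D1:**
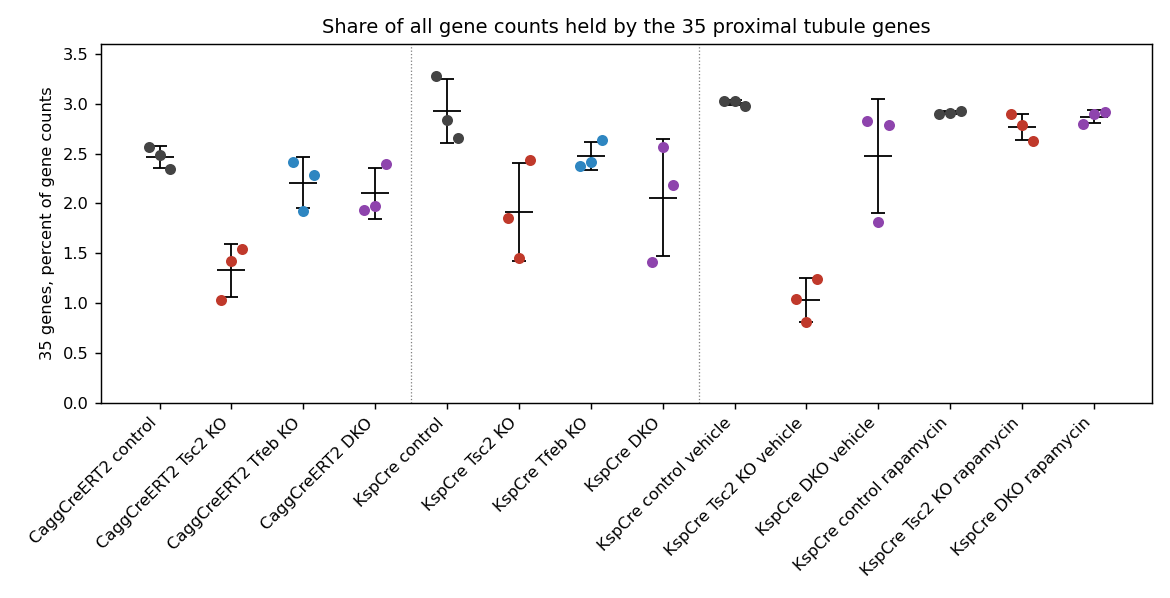
Percent of all gene counts held by the 35 members (y axis) in each library of the 14 groups (x axis), where points are libraries and the bars are the mean and SD of 3 libraries. The Tsc2 KO libraries without rapamycin lie between 0.810% and 2.44%, below the controls of their cohort, and the rapamycin-treated Tsc2 KO lie between 2.63% and 2.89%.

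To find which members changed with the loss of Tsc2, Tsc2 KO kidneys were compared with the controls of their own cohort. A gene is called decreased or increased here when the adjusted p of edgeR's quasi-likelihood test was at most 0.05 and its mean reached 5 FPKM in at least 1 of the groups compared. In the CaggCreERT2 Tsc2 KO, 21 of 35 members were decreased and 3 were increased, while 15.5% of all 8090 genes at that level were decreased and 23.0% increased. The members' median log2 fold change was -0.63, against 0.064 over all tested genes. In the KspCre Tsc2 KO, 13 members were decreased and 1 was increased, against 8.74% and 9.42% of all genes, with a median of -0.53 against -0.010. In the vehicle-treated KspCre Tsc2 KO, 28 members were decreased and 0 increased, against 24.6% and 23.8% of all genes, with a median of -1.46 against 0.0046. As the members were chosen with results of these data known, their excess over all genes is no independent support.

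In all 3 cohorts the same 11 members were decreased. They were the organic ion transporters Slc22a2, Slc22a6, Slc22a8, Slc22a12 and Slc17a3, the sugar transporter Slc5a1, the dicarboxylate transporter Slc13a3, the endocytic receptors Lrp2 and Cubn, the fatty acid gene Slc27a2, and Miox. Another 11 were decreased in 2 cohorts and 7 in 1 cohort. The share of all genes decreased in all 3 cohorts is not given, so that this overlap has no background beside it. Slc2a2 was increased in 2 cohorts, Slc7a7 and Slc6a19 were increased in 1, and Slc5a12, Slc7a8 and Amn were called in none. No member was called in opposite directions in different cohorts. Of the calls, 16 of 24 in the CaggCreERT2, 10 of 14 in the KspCre and 26 of 28 in the vehicle-treated cohort were kept whichever library was left out. Not kept were Hnf4a, Slc34a3, Slc5a2, Slc2a5, Slc26a1, Slc7a7, Slc6a19 and Gatm in the CaggCreERT2, Slc2a2, Slc17a1, Slc13a3 and Cubn in the KspCre, and Slc17a1 and G6pc in the vehicle-treated cohort. Of the 11 shared members, 9 thus kept their call in all 3 cohorts.

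**Figure D2:**
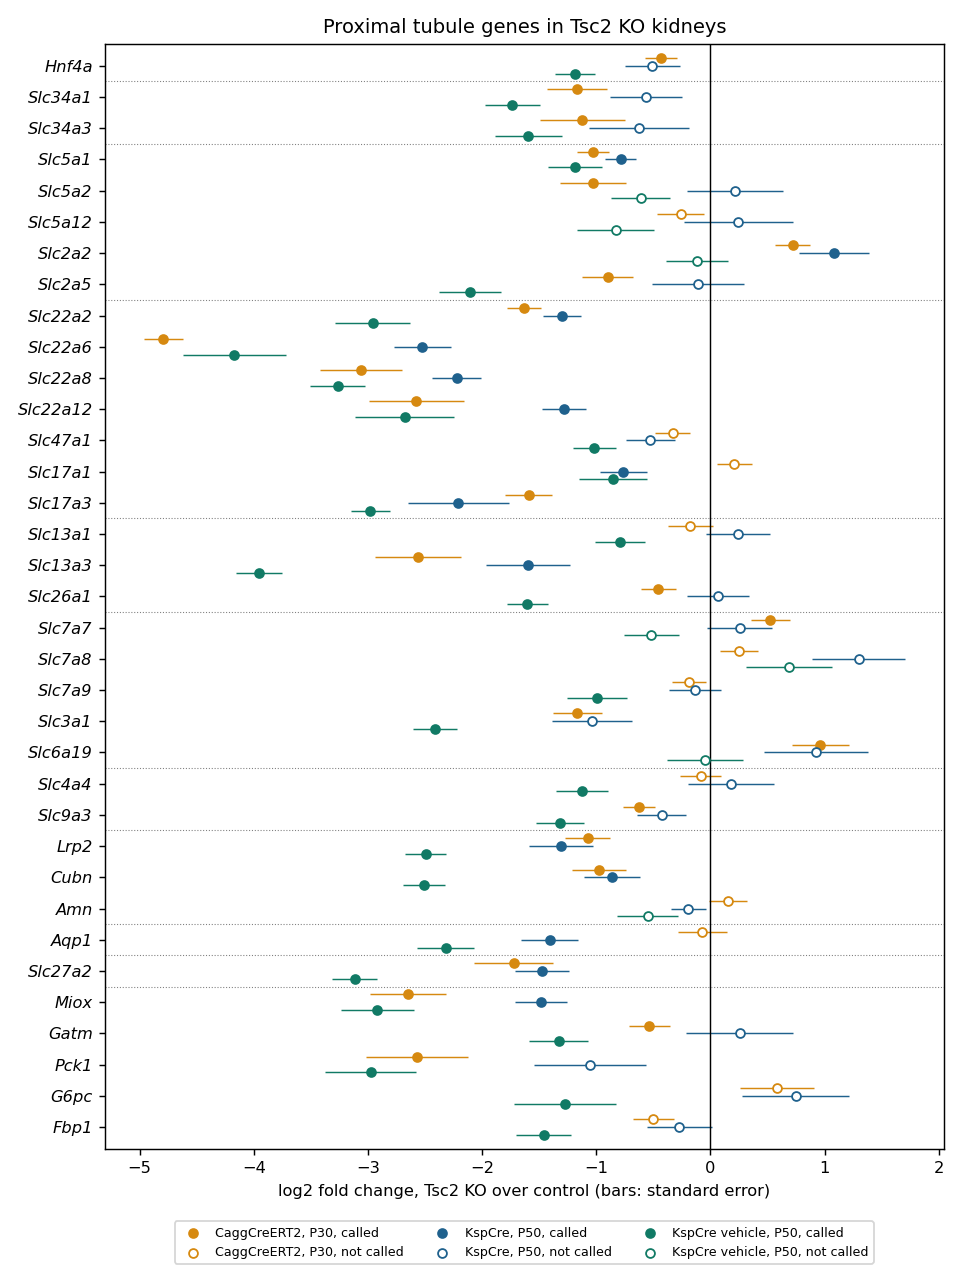
Log2 fold change of Tsc2 KO over control (x axis) for each of the 35 members (y axis, ordered by role) in the CaggCreERT2, KspCre and vehicle-treated KspCre cohorts, where bars are standard errors and filled points are called. Slc22a6 lies furthest left in the CaggCreERT2 cohort at -4.79, while Slc2a2 lies to the right of 0 in the 2 untreated cohorts.

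Hnf4a encodes a nuclear receptor that drives genes of the differentiated proximal tubule. It was at 162, 169 and 143 FPKM in the CaggCreERT2 controls and at 107, 98.2 and 132 in the Tsc2 KO, a log2 fold change of -0.43 (SE 0.14, adjusted p = 0.0379). This call was lost without any 1 of the 3 controls, without Tsc2 KO replicate 1 or 2, and with the names of the count table. In KspCre mice the controls were at 190.2, 135 and 127 and the Tsc2 KO at 97.7, 85.6 and 135, and these overlapped (adjusted p = 0.196). The largest difference was found in the vehicle-treated kidneys, where Hnf4a fell from 168, 139.6 and 174 FPKM to 68.8, 55.4 and 87.3, or 2.27-fold (adjusted p = 6.96e-05).

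Slc34a1 and Slc34a3 encode the sodium-phosphate cotransporters of the brush border. Slc34a1 fell from 1295, 1127 and 1179 FPKM in the CaggCreERT2 controls to 277, 618.04 and 643 in the Tsc2 KO, with a log2 fold change of -1.17 (SE 0.26, adjusted p = 0.00558). With vehicle it fell from 998, 833 and 1087 to 249, 233 and 394, with -1.73 (SE 0.24, adjusted p = 3.48e-05). Neither pair of groups overlapped. Slc34a3 was decreased in the same 2 cohorts, 2.18-fold and 3.02-fold. In the KspCre kidneys Slc34a3 was at 29.9, 42.8 and 31.8 FPKM in the controls and at 22.4, 20.1 and 25.4 in the Tsc2 KO, which did not overlap but did not pass the test either (adjusted p = 0.398).

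Of the 5 sugar and monocarboxylate transporters, 3 were decreased and 1 was increased in the CaggCreERT2 Tsc2 KO, 1 was decreased and 1 increased in the KspCre Tsc2 KO, and 2 were decreased with vehicle. Slc5a1, the sodium-glucose cotransporter of the late proximal tubule, fell from 33.5, 29.8 and 26.8 FPKM to 14.6, 11.2 and 16.4 in the CaggCreERT2 cohort, a log2 fold change of -1.03 (SE 0.14, adjusted p = 0.000201). It was also decreased in the KspCre cohort (1.72-fold) and with vehicle (2.27-fold). Slc5a2, the sodium-glucose cotransporter of the early segment, was decreased in the CaggCreERT2 cohort only, 2.04-fold, with values of 0.21 in the KspCre cohort and -0.61 with vehicle on the log2 scale. The difference between cohorts was not tested. Of the exon bases of Slc5a2, 20.6% also belong to BC017158. The share was 11.7% for Slc34a1 with Pfn3 and 11.2% for Slc27a2 with Gm26697, and reads without strand cannot separate such pairs.

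Slc2a2, which passes glucose across the basolateral membrane, took the other direction. It was at 32.5, 29.4 and 26.4 FPKM in the KspCre controls and at 68.8, 47.6 and 71.2 in the Tsc2 KO, an increase of 1.08 (SE 0.31, adjusted p = 0.036) on the log2 scale. The call was lost without any 1 of the 3 controls and without Tsc2 KO replicate 1 or 3. In the CaggCreERT2 cohort it rose from 35.8, 35.4 and 49.6 to 62.7, 67.8 and 60.8, 1.65-fold (adjusted p = 0.0041), a call that was lost with the names of the count table. With vehicle the groups overlapped, at 52.7, 45.1 and 54.9 against 52.1, 30.2 and 58.6. The fructose transporter Slc2a5 was decreased in the CaggCreERT2 cohort (1.87-fold) and with vehicle, where it fell from 68.1, 35.7 and 58.2 FPKM to 13.2, 8.46 and 16.1 (log2 fold change -2.11 (SE 0.27, adjusted p = 2.05e-05)). Slc5a12, a lactate transporter, was not called, with log2 fold changes of -0.26, 0.24 and -0.83 in the 3 cohorts.

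Of the 7 organic ion transporters, 5 were decreased in the CaggCreERT2, 6 in the KspCre and 7 in the vehicle-treated Tsc2 KO, and 1 of them, Slc22a6, had the largest decrease of all members in each cohort. Slc22a6, the basolateral exchanger through which organic anions and many drugs enter the cell, fell from 124, 113 and 92.6 FPKM in the CaggCreERT2 controls to 3.42, 3.42 and 4.50 in the Tsc2 KO. The groups lay far apart, and the decrease was 27.7-fold, a log2 fold change of -4.79 (SE 0.17, adjusted p = 1.24e-08). Its decrease in the KspCre cohort was 5.76-fold, from 141, 114 and 149.6 to 18.5, 20.5 and 31.5 (adjusted p = 0.000187). With vehicle it fell 18.0-fold, from 119, 83.1 and 127 to 1.67, 8.82 and 7.67 (adjusted p = 3.31e-06).

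Its relative Slc22a8, which shares many substrates, was decreased 8.34-fold, 4.67-fold and 9.62-fold in the CaggCreERT2, KspCre and vehicle-treated cohorts. The urate transporter Slc22a12 was decreased 5.96-fold, 2.43-fold and 6.40-fold, although 29.7% of its exon bases also belong to Nrxn2, and libraries without strand cannot separate the pair. In CaggCreERT2 kidneys its log2 fold change of -2.58 became -3.45 without Tsc2 KO replicate 3, the library with the highest level. Slc17a3, a urate and anion transporter, was decreased 3.02-fold, 4.62-fold and 7.89-fold. Slc22a2, the basolateral entry for organic cations, was decreased 3.10-fold, 2.47-fold and 7.78-fold. Slc47a1, the brush border exit for the same cations, was decreased 2.02-fold with vehicle, with log2 fold changes of -0.33 and -0.53 in the CaggCreERT2 and KspCre cohorts that were not called. Slc17a1, a relative of Slc17a3, was decreased in the KspCre (1.70-fold) and vehicle-treated (1.81-fold) cohorts, in the latter with overlapping groups.

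The sequence before the transcription start is shown for 3 of the 4 members with the lowest mean log2 fold change over the 3 cohorts. These members were decreased in all 3 cohorts. The fourth is Slc22a8, whose window lies inside an exon of another transcript. The sequences are those bases of the 250 before the start in RefSeq's promoter table (build GRCm38.p6) that lie outside annotated exons, 5′ to 3′ on the gene's strand, with matches to 3 motifs in capitals. That of Slc22a6 is at chr19:8617746-8617995 (plus strand), that of Slc13a3 at chr2:165473231-165473447 (minus strand) and that of Miox at chr15:89334223-89334397 (plus strand).
Slc22a6: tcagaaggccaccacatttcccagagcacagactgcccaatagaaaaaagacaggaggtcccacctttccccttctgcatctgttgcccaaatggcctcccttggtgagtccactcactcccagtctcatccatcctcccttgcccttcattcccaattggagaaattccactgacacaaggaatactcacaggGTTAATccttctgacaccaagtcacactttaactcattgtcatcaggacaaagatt
Slc13a3: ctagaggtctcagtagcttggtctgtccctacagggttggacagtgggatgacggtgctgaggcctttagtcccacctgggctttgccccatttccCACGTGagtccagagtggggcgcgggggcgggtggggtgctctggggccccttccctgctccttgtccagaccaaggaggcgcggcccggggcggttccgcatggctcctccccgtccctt
Miox: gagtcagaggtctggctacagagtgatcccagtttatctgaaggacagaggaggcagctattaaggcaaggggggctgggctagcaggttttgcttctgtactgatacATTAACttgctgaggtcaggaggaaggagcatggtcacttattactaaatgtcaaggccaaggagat

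The capitals mark GTTAAT or its reverse complement ATTAAC, a half-site of HNF1 factors, in the sequences of Slc22a6 and Miox. In the sequence of Slc13a3 they mark CACGTG, a core bound by TFEB and TFE3 among other factors, which is its own reverse complement. The first bases of these matches lie 56, 142 and 154 bases before the start of Slc22a6, Miox and Slc13a3. The table held 31 of the 35 members, without Slc5a2, Slc5a12, Slc47a1 and Slc13a1. In windows of 300 bases, from 250 before to 50 after the start, GTTAAT or ATTAAC was present in 9 of the 40 promoters listed for these members (22.5%) and in 7.10% of all 32851 promoters. CACGTG was present in 5 of the 40 (12.5%) and in 7.15% of all promoters. CAAAGTC or GACTTTG, a core of HNF4A sites, was present in 3 of the 40 (7.5%) and in 4.44% of all promoters, and its letters do not occur in the sequences shown. A match describes the letters and not binding.

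Slc13a3, the sodium-dicarboxylate cotransporter of the basolateral membrane, had the largest decrease of the sulfate and dicarboxylate group. It fell from 205, 191 and 202 FPKM in the vehicle-treated controls to 10.8, 13.3 and 14.5 in the Tsc2 KO, 15.5-fold (log2 fold change -3.95 (SE 0.20, adjusted p = 5.15e-09)). In the CaggCreERT2 cohort it fell from 173, 168 and 97.7 to 20.6, 10.7 and 39.9, a log2 fold change of -2.56 (SE 0.37, adjusted p = 0.000373) that was -3.15 without Tsc2 KO replicate 3. In the KspCre cohort it fell from 220.1, 168 and 161 to 43.0, 42.6 and 96.0 (3.03-fold, adjusted p = 0.0137), not called without Tsc2 KO replicate 1 or 2. The groups did not overlap in any cohort. Slc26a1, a basolateral sulfate exchanger, was decreased 3.04-fold with vehicle and 1.37-fold in the CaggCreERT2 cohort. Slc13a1, the sulfate transporter of the brush border, was decreased 1.73-fold with vehicle, with log2 fold changes of -0.18 and 0.24 in the CaggCreERT2 and KspCre cohorts that were not called.

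Of the 5 amino acid transporters, 1 was decreased and 2 were increased in the CaggCreERT2 Tsc2 KO, 0 were called in the KspCre Tsc2 KO and 2 were decreased with vehicle. Slc3a1, the heavy subunit of the cystine transporter, fell from 179, 188 and 114 FPKM to 64.2, 53.0 and 87.6 in the CaggCreERT2 Tsc2 KO (log2 fold change -1.17 (SE 0.21, adjusted p = 0.00171)) and from 287, 293 and 316 to 44.8, 54.4 and 68.9 with vehicle (-2.41 (SE 0.19, adjusted p = 1.79e-07)). Of the exon bases of Slc3a1, 26.5% also belong to Prepl. Its partner Slc7a9 was decreased 1.99-fold with vehicle, with log2 fold changes of -0.19 and -0.14 in the CaggCreERT2 and KspCre cohorts that were not called. In the other direction, Slc6a19, the neutral amino acid transporter of the brush border, was increased 1.95-fold in the CaggCreERT2 cohort, and Slc7a7, a basolateral exporter of cationic amino acids, 1.44-fold with overlapping groups. Slc7a8, a basolateral exchanger of neutral amino acids, was at 54.4, 47.0 and 49.4 FPKM in the KspCre controls and at 131, 82.4 and 159 in the Tsc2 KO. These did not overlap, but the log2 fold change of 1.30 did not pass the test (adjusted p = 0.0562).

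Among acid-base transporters, Slc9a3, the sodium-proton exchanger of the brush border, fell from 27.6, 32.3 and 26.5 FPKM to 18.1, 18.1 and 17.4 in the CaggCreERT2 cohort (log2 fold change -0.63 (SE 0.14, adjusted p = 0.00568)). With vehicle it fell from 34.5, 28.5 and 36.3 to 9.46, 11.2 and 19.1 (-1.32 (SE 0.21, adjusted p = 0.00014)). Among KspCre kidneys the controls, at 32.9, 23.1 and 24.5, overlapped with the Tsc2 KO, at 18.9, 15.4 and 25.6 (adjusted p = 0.233). The basolateral sodium-bicarbonate cotransporter Slc4a4 was decreased 2.18-fold with vehicle, with log2 fold changes of -0.083 and 0.18 in the CaggCreERT2 and KspCre cohorts that were not called. Differences between cohorts were not tested for Slc47a1, Slc13a1, Slc7a9 or Slc4a4.

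Lrp2 (megalin) and Cubn (cubilin) are the receptors by which filtered protein is taken up, and Amn (amnionless) carries cubilin to the membrane. Lrp2 fell from 107, 101 and 84.5 FPKM to 33.3, 46.8 and 52.7 in the CaggCreERT2 Tsc2 KO (-1.08 (SE 0.19, adjusted p = 0.00152) on the log2 scale) and from 168, 118 and 148 to 53.2, 44.8 and 77.4 in the KspCre Tsc2 KO (-1.31 (SE 0.28, adjusted p = 0.0095)). With vehicle Cubn fell from 41.5, 50.4 and 43.9 to 8.17, 6.27 and 9.36 (-2.51 (SE 0.19, adjusted p = 8.49e-08)), and the log2 fold change of Lrp2 was -2.50. Both receptors were decreased in all 3 cohorts without overlap of the groups, but the KspCre call of Cubn was lost without any 1 of the 3 controls and without Tsc2 KO replicate 1 or 2. Amn was called in none, with log2 fold changes of 0.15, -0.19 and -0.55.

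Aqp1, the water channel of the proximal tubule and thin descending limb, overlapped between CaggCreERT2 controls (383, 399 and 289.7 FPKM) and Tsc2 KO (342, 216 and 419). In KspCre mice it fell from 597, 407 and 430.3 to 156, 178 and 207 (-1.41 (SE 0.25, adjusted p = 0.00398)). With vehicle it fell from 502, 422 and 459 to 50.3, 96.0 and 131 (-2.32 (SE 0.25, adjusted p = 3.22e-06)). A test of whether the cohorts differ was not made. Slc27a2, which takes up and activates fatty acids, was at 527, 471 and 395 FPKM in the CaggCreERT2 controls and at 78.8, 83.5 and 242 in the Tsc2 KO. Its log2 fold change of -1.72 there (adjusted p = 0.00287) became -2.44 without Tsc2 KO replicate 3, again the highest of the group. In the KspCre kidneys it fell from 1103, 786 and 609 to 282, 274 and 343 (2.78-fold, adjusted p = 0.00204). The decrease with vehicle was 8.67-fold, from 818, 758 and 842 to 75.3, 86.5 and 116.7 (adjusted p = 2.02e-08).

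Of the metabolic enzymes, 3 of 5 were decreased in the CaggCreERT2, 1 in the KspCre and 5 in the vehicle-treated Tsc2 KO. Miox, which opens the ring of myo-inositol, fell from 1534, 1463 and 1619 FPKM to 116, 202 and 389 in the CaggCreERT2 cohort (6.28-fold, adjusted p = 0.000131). KspCre kidneys showed a decrease from 1215, 1493 and 1282 to 479.6, 396 and 552 (2.80-fold, adjusted p = 0.00172). The most abundant member of the control kidneys was decreased 2.80-fold to 7.56-fold in the 3 comparisons.

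Pck1, G6pc and Fbp1 encode the regulated enzymes of gluconeogenesis, and all 3 were decreased with vehicle. Pck1, which makes phosphoenolpyruvate, fell from 1229, 1364 and 801 FPKM to 213, 56.5 and 161 with vehicle (7.87-fold, adjusted p = 2.54e-05). It was decreased 5.94-fold in the CaggCreERT2 cohort (adjusted p = 0.00117), and in the KspCre cohort its wide control values overlapped with the Tsc2 KO. Fbp1, fructose-bisphosphatase, was decreased 2.75-fold with vehicle and had a log2 fold change of -0.50 in the CaggCreERT2 cohort (adjusted p = 0.0556). G6pc, the catalytic subunit of glucose-6-phosphatase, was decreased 2.42-fold with vehicle, while its values of 0.59 and 0.75 in the other cohorts were above 0 and not called. Gatm, which starts creatine synthesis, was decreased 1.45-fold in the CaggCreERT2 cohort and 2.51-fold with vehicle.

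The libraries of a group differed in how many members were low. Against the mean of the CaggCreERT2 controls, 18, 14 and 8 members lay under 0.5 of that level in Tsc2 KO replicates 1, 2 and 3. In the KspCre Tsc2 KO these numbers were 12, 15 and 8, and with vehicle 23, 28 and 21. In the fit with Xist as a covariate, 19 members were called in the CaggCreERT2 Tsc2 KO in place of 24, and Slc34a3, Slc5a2, Slc26a1, Slc7a7 and Gatm lost their call. With the names of the count table there were 17 calls, and Hnf4a, Slc34a3, Slc2a2, Slc26a1, Slc7a7, Slc6a19 and Gatm lost it, so that no increase was left.

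Further genes of the proximal tubule in the Tsc2 KO were mostly decreased or not called. Of 33 further transporters, 23 were decreased and 1 was increased in the CaggCreERT2, 16 and 0 in the KspCre, and 26 and 0 in the vehicle-treated cohort. Of 30 further enzymes of the segment, 16 and 1, 14 and 0, and 24 and 0 were called. Their median log2 fold changes were -1.31, -1.04 and -1.99 for the transporters and -1.71, -1.18 and -2.48 for the enzymes. Of 18 other enzymes of gluconeogenesis and of fructose and glutamine metabolism, 7 were decreased and 2 increased, 3 and 2, and 12 and 2. Of 22 partners of the brush border and of endocytosis, 21 of them in the tables, 11 and 2, 5 and 1, and 14 and 2 were called. Of 9 other regulators of the segment, 3 and 1, 0 and 0, and 3 and 0 were called. Of all genes that reached 5 FPKM, 15.5%, 8.74% and 24.6% were decreased and 23.0%, 9.42% and 23.8% increased, while the lists count every listed gene. The counts of regulators are no clear departure from these shares. The lists were chosen with results of these data known, so that their counts are no independent support.

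Markers of other cells and states moved in the same comparisons. Of 14 genes of injured tubule, 8, 6 and 7 were increased and 0 decreased in the CaggCreERT2, KspCre and vehicle-treated Tsc2 KO. Their summed level was 1643 to 2012 FPKM in the CaggCreERT2 controls and 5414 to 8206 in the Tsc2 KO, 1412 to 1797 and 6264 to 8145 in the KspCre cohort, and 1399 to 1463 and 5702 to 8176 with vehicle. Decreases were also found outside the proximal tubule, in 10, 7 and 10 of 15 genes of the thick limb and distal convoluted tubule, with 0, 0 and 1 increased, and in 6, 5 and 5 of 10 podocyte genes. The summed level of the thick limb and distal list was 1904 to 2297 FPKM in the CaggCreERT2 controls and 972 to 1288 in the Tsc2 KO. In the KspCre cohort this sum was higher in all 3 Tsc2 KO libraries, at 2271 to 2524 against 2107 to 2259.8, and with vehicle the groups overlapped, at 1930.3 to 2453 and 1260.5 to 2199.8. The summed podocyte level was 195 to 213 FPKM in the CaggCreERT2 controls and 66.6 to 90.9 in the Tsc2 KO. Of 14 macrophage genes 4, 1 and 6 were increased and 0, 0 and 1 decreased, with a summed level of 106 to 138 FPKM in the CaggCreERT2 controls and 181 to 231 in the Tsc2 KO, 65.5 to 96.5 and 126 to 206 in the KspCre cohort, and 53.4 to 68.4 and 135 to 232 with vehicle. Of 14 proliferation genes 7, 3 and 5 were increased, of 11, 4 and 5 that reached 5 FPKM and so could be called. For the macrophage genes 7 could be called in each comparison. In the collecting duct list of 17 genes, 7, 6 and 5 were decreased and 0, 4 and 6 increased, and in the endothelial list of 10, 0, 6 and 3 were decreased. The shares of all genes decreased were 15.5%, 8.74% and 24.6% in these comparisons and those increased 23.0%, 9.42% and 23.8%. They are shares of genes that reached 5 FPKM, whereas the lists count every listed gene, so that the bases differ. With vehicle the decreased counts of the collecting duct and endothelial lists are no clear departure from the background. Of 12 fibroblast genes 1, 0 and 4 were increased, and of the 11 T and B cell genes 0 reached a group mean of 5 FPKM, so that none could be called. Every gene of these lists was above 0 in at least 1 library of each of the groups compared. The part of any of these cells in the decreases of the members was not tested.

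Whether Tfeb by itself matters for these genes was addressed by comparing Tfeb KO with control kidneys. EdgeR's test called 0 of 35 members in either cohort. In CaggCreERT2 kidneys edgeR called 0.0128% of all genes decreased and 0.0128% increased. There 9 members had an unadjusted p under 0.05, and DESeq2 called 2, Slc22a6 and Slc7a8. Shares of all genes at that unadjusted p or called by DESeq2 are not given, here or in later comparisons. Without Tfeb KO replicate 1, edgeR called 1 member. Slc7a8 was at 49.2, 40.0 and 48.9 FPKM in the Tfeb KO and at 83.0, 87.8 and 121 in the controls, a log2 fold change of -1.06 (SE 0.17, adjusted p = 0.101) in edgeR. Slc22a6 was at 78.1, 66.4 and 69.3 FPKM, below all 3 controls (-0.59 (SE 0.15, adjusted p = 0.289)). In the KspCre cohort 0.00% of all genes were called in either direction, 1 member had an unadjusted p under 0.05 and DESeq2 called 0. The members' median log2 fold change was -0.29 and -0.23 in the 2 cohorts. All CaggCreERT2 controls were male and all Tfeb KO female, so that sex and genotype cannot be told apart there.

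Loss of Tfeb on top of Tsc2 was then read from the DKO, first against the Tsc2 KO. These comparisons share the Tsc2 KO libraries with those above. In the CaggCreERT2 cohort 16 of 35 members were increased in the DKO and 0 decreased, against 6.91% and 7.56% of all genes, with a median log2 fold change of 0.66 against -0.038. Pck1 had the largest increase, from 43.4, 109 and 145 FPKM in the Tsc2 KO to 459.6, 555 and 1324 in the DKO, 7.75-fold (log2 fold change 2.95 (SE 0.45, adjusted p = 0.0028)). It was 2.34 on the log2 scale without DKO replicate 3, which held the highest level. Slc22a6 rose from 3.42, 3.42 and 4.50 to 28.4, 21.4 and 28.3, 6.76-fold (adjusted p = 3.79e-06). Slc13a3 rose 3.48-fold, Miox 3.37-fold and Slc22a12 3.35-fold, the last with a log2 fold change of 1.74 that was 2.62 without Tsc2 KO replicate 3.

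Also increased were Slc5a2, Slc2a5, Slc22a2, Slc22a8, Slc17a3, Slc13a1, Slc4a4, Slc9a3, Lrp2, Cubn and Gatm, by 0.61 to 1.39 on the log2 scale. Hnf4a, the 2 phosphate transporters and all 5 amino acid transporters were not called. Depending on the library left out, 6 to 19 members were called. The count was 6 without DKO replicate 3, 7 without Tsc2 KO replicate 1 and 10 without DKO replicate 2. Slc22a2, Slc22a6, Miox and Pck1 kept their call whichever library was left out.

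Among KspCre kidneys 0 of 35 members were called between DKO and Tsc2 KO by edgeR, where 0.169% of all genes were decreased and 0.117% increased. The members' median log2 fold change was -0.040 against -0.034 over all genes, with 19 members below 0 and 16 above. Of the members, 9 had an unadjusted p under 0.05, and DESeq2 called 5, with Slc22a6, Slc22a8, Slc22a12 and Miox higher and Slc2a2 lower in the DKO. These counts have no share of all genes beside them, since the shares given are of edgeR's calls. Slc22a6 was at 44.3, 71.0 and 51.5 FPKM in the DKO and at 18.5, 20.5 and 31.5 in the Tsc2 KO, without overlap (1.25 (SE 0.24, adjusted p = 0.0598)). The DKO replicate with the high macrophage level had the lowest Slc22a6 value of the 3, and 19 of 35 members in it lay under 0.5 of the control mean. Without that library edgeR called 1 member, Slc22a8, at a log2 fold change of 1.31 (adjusted p = 0.0482).

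In the vehicle-treated kidneys 25 members were increased in the DKO against the Tsc2 KO and 0 decreased, against 16.9% and 12.6% of all genes, with a median log2 fold change of 1.29 against 0.023. Slc13a3 rose from 10.8, 13.3 and 14.5 FPKM to 165, 106 and 173, 11.5-fold (adjusted p = 4.17e-08). Slc22a6 rose from 1.67, 8.82 and 7.67 to 75.1, 63.1 and 68.8, 11.4-fold (adjusted p = 4.54e-05). Pck1 rose 7.60-fold, Miox 5.79-fold and Hnf4a 1.80-fold, the last to 150.4, 91.6 and 138 FPKM. By role, both phosphate transporters, 6 of 7 organic ion transporters, all 3 sulfate and dicarboxylate transporters, both acid-base transporters, Lrp2, Cubn, Aqp1, Slc27a2 and all 5 enzymes were increased, but 1 of 5 sugar and 1 of 5 amino acid transporters. DKO replicate 2 had the lowest share of counts of the group, and without it 28 members were called. The count was 22 without DKO replicate 1 or 3 or Tsc2 KO replicate 2, and 19 in a fit of only the groups compared. Of the 25 calls 22 were kept whichever library was left out, and those of Slc47a1, Slc4a4 and G6pc were not.

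**Figure D3:**
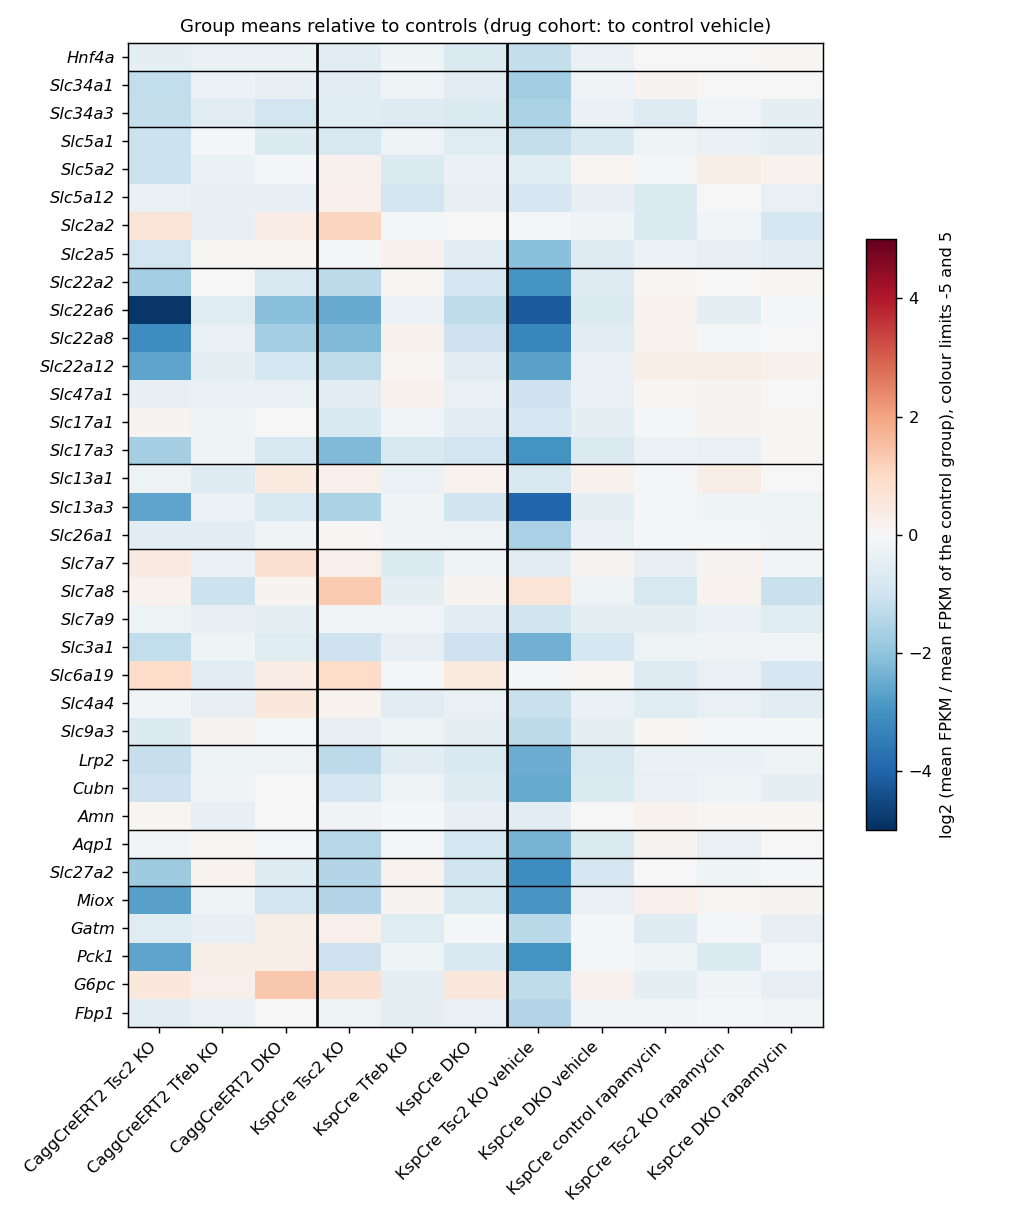
Log2 ratio of the mean FPKM of each group (columns) to the control group of its cohort, in the drug cohort to the vehicle-treated controls, for the 35 members (y axis, ordered by role), with colour limits at -5 and 5. Blue is lower and red is higher than control. Slc22a6 and Slc13a3 are among the darkest blue cells of the Tsc2 KO columns without rapamycin, and the 3 rapamycin columns are pale.

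The DKO was also compared with the controls of the same cohort. In CaggCreERT2 kidneys 5 were decreased and 2 increased, against 4.73% and 10.2% of all genes. The decreased ones were Slc5a1, Slc22a2, Slc22a6, Slc22a8 and Slc17a3, with Slc22a6 at 28.4, 21.4 and 28.3 FPKM, 4.10-fold under the controls (adjusted p = 6.59e-06). The increased ones were Slc7a7 (1.73-fold) and G6pc, which rose from 105, 145 and 107 to 237, 273 and 406 (1.40 (SE 0.33, adjusted p = 0.018)). Under the names of the count table there were 0 calls in this comparison, without control replicate 1 there were 4, and there were 16 without the filter on low counts and 16 in a fit of only the groups compared.

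In the KspCre DKO 5 members were decreased and 0 increased, against 1.56% and 2.33% of all genes. These were Slc5a1, Slc22a2, Slc22a6, Slc22a8 and Slc27a2, decreased 1.53-fold to 2.43-fold. None of the 5 calls held for every library left out, with 0 to 3 called in these fits, 0 of them without control replicate 1 or DKO replicate 3. There was 1 call without control replicate 2 or 3, 2 without DKO replicate 1 and 3 without DKO replicate 2. DESeq2 called 10, and a fit of only the groups compared or with a replicate block called 2. In the vehicle-treated DKO 5 members were decreased and 0 increased, against 3.05% and 5.37% of all genes. These were Slc17a3, Slc3a1, Lrp2, Cubn and Slc27a2, decreased 1.66-fold to 1.81-fold, while 1 was called without control vehicle replicate 3, 3 without DKO vehicle replicate 2 and 1 in a fit of only the groups compared. The members' median log2 fold change in the DKO against control was -0.12, -0.56 and -0.34 in the CaggCreERT2, KspCre and vehicle-treated cohorts.

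**Figure D4:**
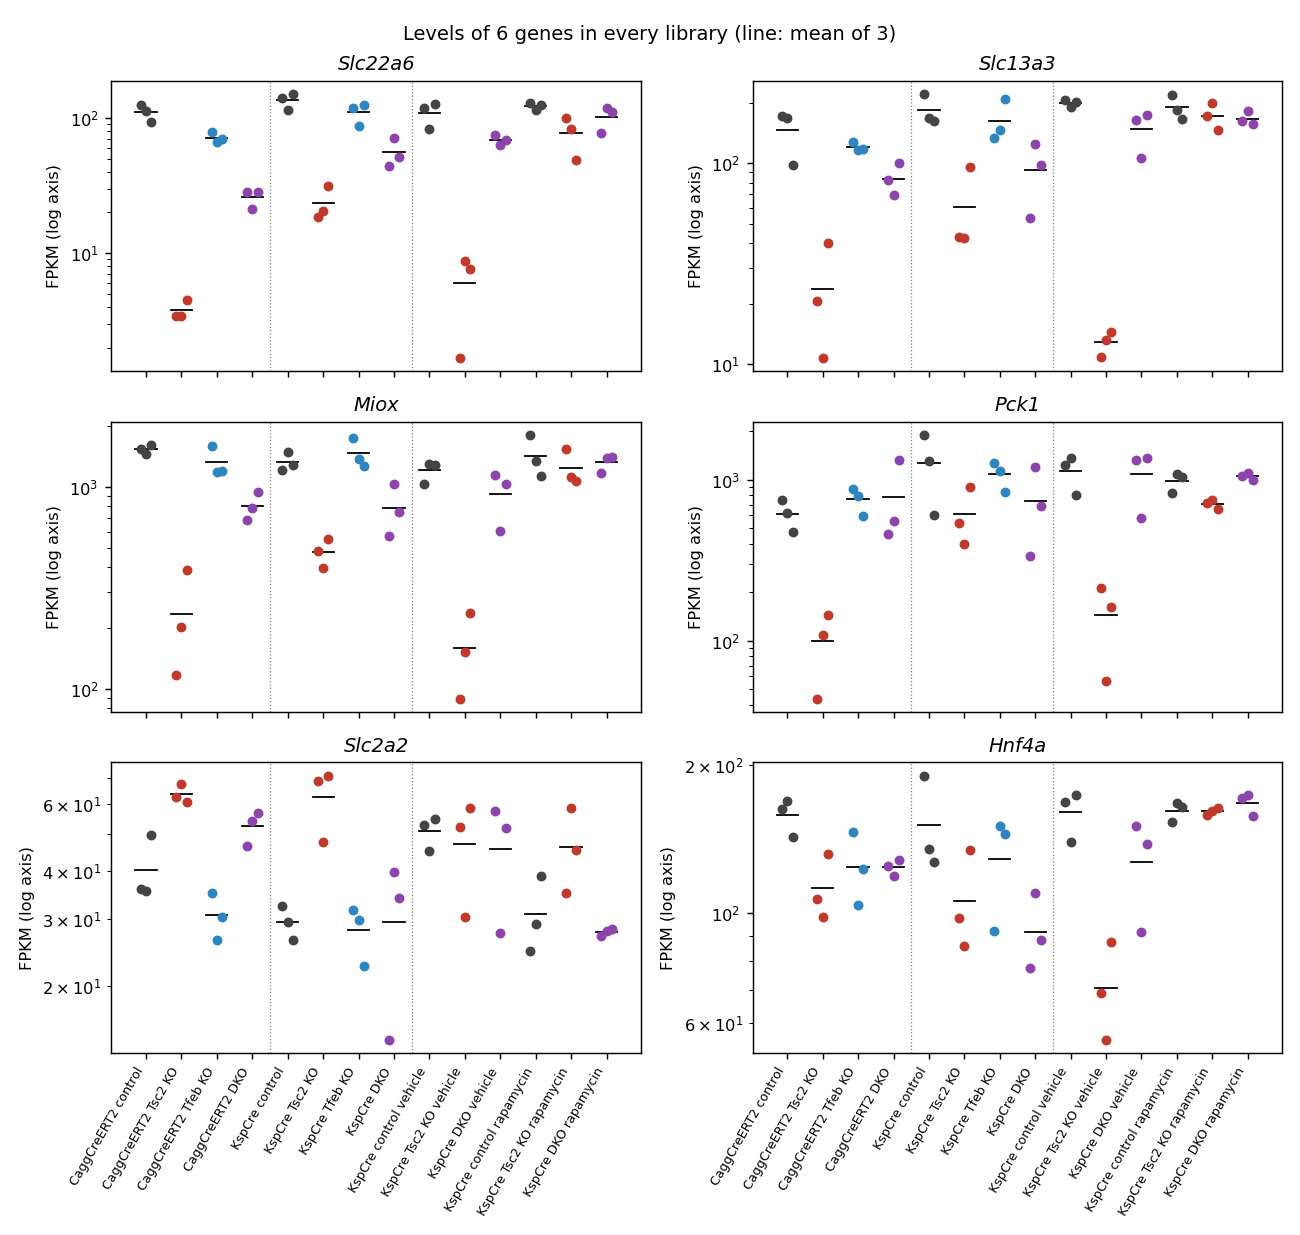
FPKM (log axis) of Slc22a6, Slc13a3, Miox, Pck1, Slc2a2 and Hnf4a in each library (points) of the 14 groups (x axis), where lines are means of 3 libraries. Slc22a6 lies under 5 FPKM in all CaggCreERT2 Tsc2 KO libraries and at 21.4 to 28.4 in the DKO.

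The effect of Tfeb inactivation was compared between kidneys without and with Tsc2 by an interaction term, in which a positive value means a higher effect in the Tsc2-deficient kidneys. In the CaggCreERT2 cohort it was called for 3 members, all positive, against 1.63% positive and 0.504% negative calls over all genes. These were Slc22a6 at 3.35 (SE 0.21, adjusted p = 2.57e-05), Slc13a1 at 1.35 (SE 0.28, adjusted p = 0.0397) and Gatm at 1.24 (SE 0.25, adjusted p = 0.0329) on the log2 scale. Slc22a6 kept its call in every fit with a library left out. The count was 13 without Tsc2 KO replicate 3, 8 without Tfeb KO replicate 1 and 5 without Tsc2 KO replicate 2, and 1 without any 1 of the 3 controls, Tfeb KO replicate 2 or 3, or DKO replicate 1 or 2. The count was 1 with the names of the count table and 1 with the Xist covariate, both leaving Slc22a6, and DESeq2 called 18. The controls of this cohort were all male and its Tfeb KO all female. Sex and Tfeb inactivation thus cannot be told apart in the part of the term from kidneys with Tsc2. In KspCre mice 0 were called by edgeR, against 0.00% of all genes, with 7 members at an unadjusted p under 0.05 and 1 called by DESeq2.

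Rapamycin was compared with vehicle within each genotype. In the Tsc2 KO, 28 of 35 members were increased by rapamycin against vehicle and 0 decreased, against 21.2% and 17.3% of all genes, with a median log2 fold change of 1.39 against 0.011. Slc13a3 rose 13.4-fold to 171, 199 and 146 FPKM (adjusted p = 1.29e-08). Slc22a6 rose 12.7-fold to 100.4, 82.2 and 49.0 (adjusted p = 1.74e-05). Slc22a8 rose 8.90-fold, Slc22a12 7.86-fold, Miox 7.82-fold, Slc22a2 7.78-fold and Slc27a2 7.58-fold. All 7 organic ion transporters were increased. Of the 28 calls 23 were kept whichever library was left out, and those of Slc5a1, Slc5a2, Slc17a1, Slc7a7 and Slc4a4 were not.

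Of the other roles, Slc34a1 rose to 1130.2, 779 and 997 FPKM under rapamycin, 3.32-fold (adjusted p = 6.35e-05). Hnf4a rose to 158, 161 and 164, 2.29-fold (adjusted p = 0.000115). The receptors Lrp2 and Cubn rose 4.49-fold and 4.79-fold, Aqp1 3.84-fold, and Pck1 4.93-fold to 713, 746 and 661. The groups of these 6 genes did not overlap. Not called were Slc5a12, Slc2a2, Slc7a8, Slc7a9, Slc6a19, Amn and G6pc, with log2 fold changes of -0.51 to 1.09.

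**Figure D5:**
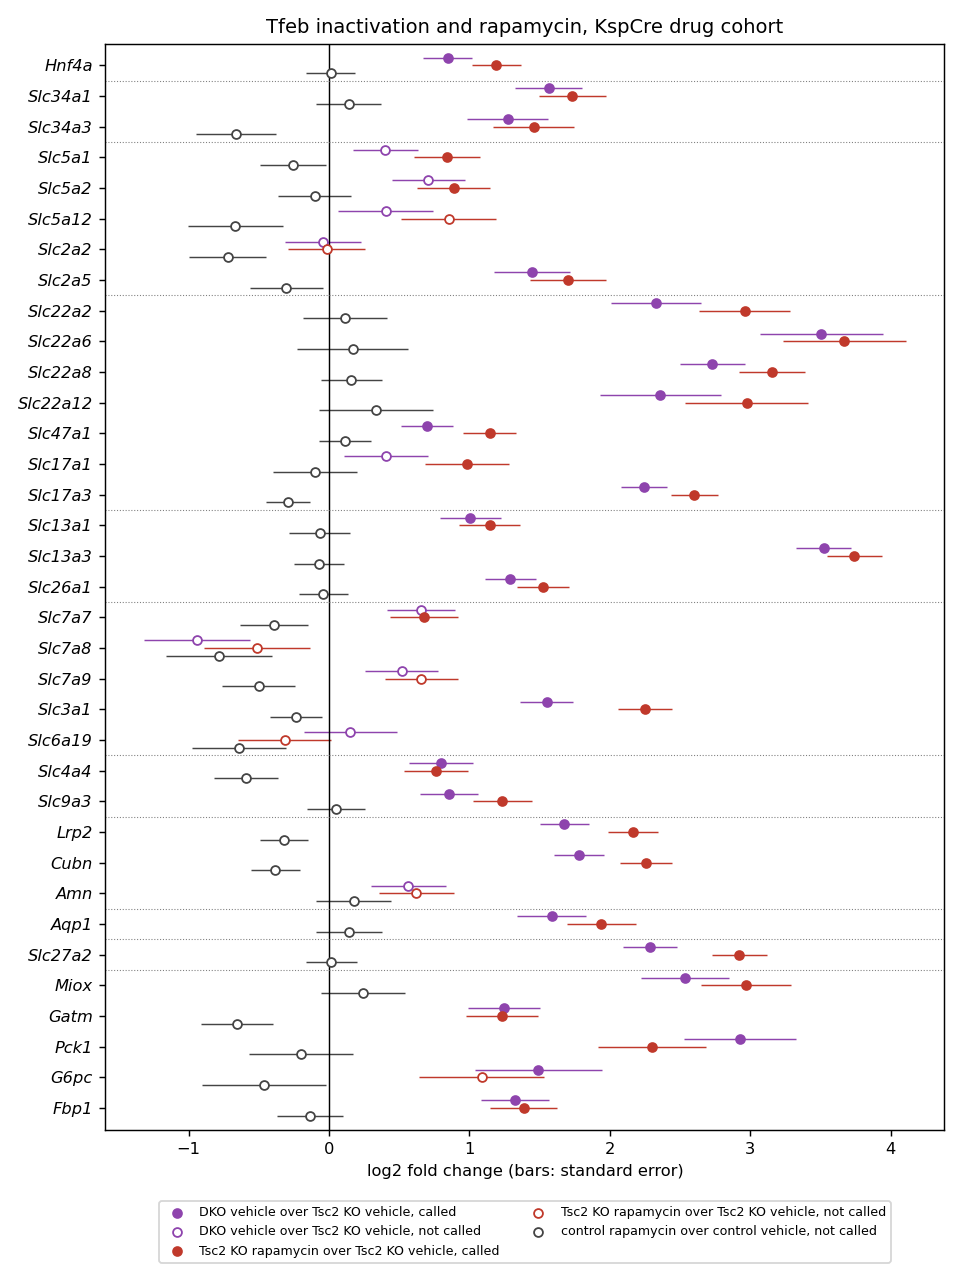
Log2 fold changes (x axis, bars are standard errors) of the 35 members (y axis, ordered by role) for DKO vehicle over Tsc2 KO vehicle, Tsc2 KO rapamycin over Tsc2 KO vehicle and control rapamycin over control vehicle, where filled points are called. The first 2 share the Tsc2 KO vehicle libraries and reach 3.52 and 3.74 for Slc13a3, while no point of the control comparison is filled.

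In control kidneys rapamycin changed 0 of 35 members by edgeR, against 0.0664% of all genes decreased and 0.00% increased. At an unadjusted p under 0.05 there were 5 members, and DESeq2 called 0. The members' log2 fold changes ran from -0.78 for Slc7a8 to 0.34 for Slc22a12, with a median of -0.13. In the DKO 3 members were increased by rapamycin and 0 decreased, against 2.73% and 4.70% of all genes. These were Slc17a3 (1.75-fold), Slc3a1 (1.64-fold) and Slc27a2 (1.70-fold). The count was 1 without DKO vehicle replicate 1 and 1 without any 1 of the 3 DKO rapamycin libraries. Without DKO vehicle replicate 2 it was 3, namely Slc17a3 and, now decreased, Slc2a2 and Slc6a19.

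The difference between these rapamycin effects was itself tested. The interaction value of the Tsc2 KO against the controls was called above 0 for 28 members and below 0 for 0, against 17.2% and 12.5% of all genes. All 35 interaction values were above 0, from 0.28 for Slc7a8 to 3.81 for Slc13a3. Among the 28 were Slc5a12 and Slc7a9, not called for rapamycin against vehicle in the Tsc2 KO and at -0.67 and -0.50 in the controls. Of the 28 calls 24 were kept whichever library was left out, and those of Slc5a1, Slc5a12, Slc7a7 and Slc7a9 were not. Against the DKO, the rapamycin effect in the Tsc2 KO was higher for 20 members and lower for 0, against 8.11% and 2.93% of all genes, with a largest value of 3.57 for Slc13a3 (adjusted p = 2.85e-06 in edgeR). With 1 library left out that count was 15 to 26, lowest without DKO vehicle replicate 1 and highest without DKO vehicle replicate 2, and 14 of the 20 calls held for every library left out. The vehicle-treated Tsc2 KO libraries enter each of these differences.

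Under rapamycin, Tsc2 KO and control kidneys were compared with each other. Of the 35 members 0 were called by edgeR, against 0.132% of all genes decreased and 0.688% increased, 5 had an unadjusted p under 0.05 and DESeq2 called 0. The members' median log2 fold change was -0.0041, and single values ran from -0.67 for Slc22a6 to 0.97 for Slc7a8. Slc22a6 was at 129.7, 114 and 125 FPKM in the rapamycin-treated controls and at 100.4, 82.2 and 49.0 in the Tsc2 KO, all 3 of which lay below the controls (adjusted p = 0.492). For Miox the groups overlapped, at 1812, 1342 and 1130.4 against 1547, 1117 and 1076. A p above the threshold does not show that the groups are equal.

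Of the 33 further proximal tubule transporters 26 were increased by rapamycin in the Tsc2 KO and 24 in the vehicle-treated DKO against Tsc2 KO, and of the 30 further enzymes 24 and 21. Of the 14 injured tubule genes 8 and 6 were decreased, with a summed level of 1813 to 2641 FPKM in the rapamycin-treated Tsc2 KO and 1802 to 3622 in the vehicle-treated DKO. In the CaggCreERT2 DKO 2 of 14 were decreased against the Tsc2 KO, and the summed level was 4125 to 6728. In the KspCre DKO without vehicle 1 of 14 was decreased, and the summed level was 3009 to 4207 against 6264 to 8145 in the Tsc2 KO, without overlap. Of the 14 macrophage genes 5 and 5 were decreased, with 51.9 to 108 FPKM in the rapamycin-treated Tsc2 KO and 76.9 to 109 in the vehicle-treated DKO. Of the 14 proliferation genes 5 reached 5 FPKM, and all 5 were decreased in both comparisons, with a summed level of 53.8 to 122 FPKM in the vehicle-treated Tsc2 KO, 29.0 to 30.5 in the rapamycin-treated Tsc2 KO and 34.4 to 38.2 in the vehicle-treated DKO. Of the 12 fibroblast genes 1 and 3 were decreased and 0 increased, and of the 10 endothelial genes 0 and 3 were increased and 0 decreased. Of the 15 genes of the thick limb and distal convoluted tubule 10 and 10 were increased, with 1 and 1 decreased, and of the 10 podocyte genes 3 and 3, with 1 and 0 decreased. Of the 17 collecting duct genes 6 and 6 were increased and 4 and 5 decreased, and of the 9 proximal tubule regulators 2 and 2 were increased and 0 decreased. Of all genes that reached 5 FPKM, 21.2% were increased and 17.3% decreased by rapamycin, and 16.9% and 12.6% in the DKO. The increased counts of regulators, and of endothelial genes in the DKO, are thus no clear departure from the background. In the DKO comparison 5 podocyte genes reached 5 FPKM, with a median log2 fold change of 1.28. The summed podocyte level was 39.8 to 50.6 FPKM in the vehicle-treated Tsc2 KO. It was 52.6 to 128 in the rapamycin-treated Tsc2 KO and 87.3 to 104 in the vehicle-treated DKO. The part of these cells in the increases of the members was not tested.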

How the data were processed

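Poly-A RNA of whole kidney pieces was sequenced without strand information. The authors deposited raw read counts per gene and FPKM per gene for 3 cohorts, 1 column per library. STAR 2.6.1d, HISAT2 2.0.5, featureCounts 1.5.0-p3, DESeq2 1.20.0 and build mm10 are named in the submitters' processing notes without their roles, and the annotation is not given in the sources used here. The deposited FPKM values equal a constant per library times count over gene length, which tied each count column to its FPKM column. All 84 value columns were mapped to libraries and 0 were left over. For the CaggCreERT2 cohort, library names follow the FPKM table.

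Counts were tested per cohort with edgeR 4.0.16 in R 4.3.3, in 1 fit of all groups (filterByExpr, TMM normalization, quasi-likelihood test), with Benjamini-Hochberg adjustment over all 16348, 16631 and 17027 genes tested in the CaggCreERT2, KspCre and drug cohorts. The groups were read from the sample labels. A call required an adjusted p of at most 0.05 and a group mean of at least 5 FPKM. Every adjusted p given is from this test unless another tool is named. The standard error is the absolute log2 fold change over the square root of the F statistic. FPKM served for levels only. Alternatives were RLE normalization, DESeq2 1.42.0, only the groups compared, no filter on low counts, no FPKM minimum or 5 FPKM in every library compared, a replicate block by number, a covariate for Xist level, the names of the count table and leaving out each library. All 35 members are accounted for by role, and values per library are given for the member of each role with the largest absolute log2 fold change between Tsc2 KO and control of each cohort, for Hnf4a, and elsewhere where a sentence turns on them. Deviations of same-numbered libraries were correlated between groups. For KspCre Tsc2 KO and DKO, and for no other pair of groups, all 3 were above 0.1, at 0.189 to 0.246, a pairing that comes from the data and not from the labels, and the replicate block there called 0 members, as the fit without it did. The members and the gene lists were chosen with earlier results of these data known. Tables were handled with pandas 2.3.3 and figures drawn with matplotlib 3.10.9.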

Additional observations from a re-analysis of the deposited data

Results flagged for a closer look

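The effect of Tfeb inactivation differed between CaggCreERT2 kidneys with and without Tsc2 for 3 members, by the interaction term of edgeR's fit. The differences on the log2 scale were 3.35 for Slc22a6, 1.35 for Slc13a1 and 1.24 for Gatm, each higher without Tsc2.

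The effect of rapamycin was higher in the Tsc2 KO than in the controls for 28 members by the same kind of test. For the regulator, phosphate and sugar genes the differences on the log2 scale were 1.18 for Hnf4a, 1.59 for Slc34a1, 2.12 for Slc34a3, 1.10 for Slc5a1, 1.52 for Slc5a12 and 2.00 for Slc2a5. For the organic ion transporters the differences on the log2 scale were 2.85 for Slc22a2, 3.50 for Slc22a6, 2.99 for Slc22a8, 2.64 for Slc22a12, 1.03 for Slc47a1 and 2.89 for Slc17a3. For the sulfate, dicarboxylate, amino acid and acid-base transporters the differences on the log2 scale were 1.21 for Slc13a1, 3.81 for Slc13a3, 1.56 for Slc26a1, 1.07 for Slc7a7, 1.16 for Slc7a9, 2.49 for Slc3a1, 1.35 for Slc4a4 and 1.18 for Slc9a3. For the remaining members the differences on the log2 scale were 2.49 for Lrp2, 2.64 for Cubn, 1.80 for Aqp1, 2.91 for Slc27a2, 2.72 for Miox, 1.89 for Gatm, 2.50 for Pck1 and 1.52 for Fbp1. The calls of Slc5a1, Slc5a12, Slc7a7 and Slc7a9 did not hold for every library left out.

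The effect of rapamycin was higher in the Tsc2 KO than in the DKO for 20 members by the same kind of test. For the regulator, phosphate and sugar genes the differences on the log2 scale were 1.55 for Slc34a1, 1.60 for Slc34a3 and 1.60 for Slc2a5. For the organic ion transporters the differences on the log2 scale were 2.25 for Slc22a2, 3.11 for Slc22a6, 2.601 for Slc22a8, 2.45 for Slc22a12 and 1.80 for Slc17a3. For the sulfate, dicarboxylate, amino acid and acid-base transporters the differences on the log2 scale were 1.36 for Slc13a1, 3.57 for Slc13a3, 1.40 for Slc26a1 and 1.54 for Slc3a1. For the remaining members the differences on the log2 scale were 1.61 for Lrp2, 1.99 for Cubn, 1.23 for Aqp1, 2.16 for Slc27a2, 2.45 for Miox, 1.55 for Gatm, 2.36 for Pck1 and 1.40 for Fbp1. The calls of Slc34a3, Slc2a5, Slc22a12, Aqp1, Gatm and Fbp1 did not hold for every library left out.

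For Slc17a3, Slc3a1 and Lrp2, every rapamycin-treated DKO library lay above every vehicle-treated one, and every rapamycin-treated control lay below every vehicle-treated one. The log2 fold change of Slc17a3 was 0.80 in the DKO and -0.29 in the controls. The log2 fold change of Slc3a1 was 0.71 in the DKO and -0.24 in the controls. The log2 fold change of Lrp2 was 0.56 in the DKO and -0.32 in the controls. These differences between genotypes were not tested. The 3 members were singled out for this separation, and the share of all genes with such a separation is not given. Slc17a3 and Slc3a1 were called in the DKO comparison and Lrp2 was not. In the controls 0 of the 3 were called by edgeR (adjusted p = 0.482 to 0.612). With each library left out in turn, the log2 fold change in the DKO was 0.63 to 0.94 for Slc17a3 and 0.52 to 0.83 for Slc3a1. Slc17a3 was then not called without DKO rapamycin replicate 3, and Slc3a1 was called only without DKO vehicle replicate 3.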

How the results depend on the processing

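The number of members called was compared under each alternative, and no called member changed sign in any of them. In the Tsc2 KO against control the count was 24 (CaggCreERT2), 14 (KspCre) and 28 (vehicle), and it stayed within 1.5 times under all alternatives, with 18 to 23, 10 to 13 and 26 to 29 called when 1 library was left out. RLE normalization and leaving out the FPKM minimum changed no call. For the DKO against Tsc2 KO in the CaggCreERT2 cohort the count of 16 became 8 in a fit of only the groups compared, and 6 to 19 with 1 library left out. For the DKO against control in that cohort, 7 became 16 without the filter on low counts, 16 with only the groups compared, 0 with the names of the count table and 4 to 7 with 1 library left out. For the Tfeb KO against control there, 0 became 3 without the filter, 2 in DESeq2 and 0 to 1 with 1 library left out, the call being made without Tfeb KO replicate 1. The interaction of Tfeb with Tsc2 in this cohort, 3 members, became 20 without the filter, 18 in DESeq2, 1 with the Xist covariate, 1 with the names of the count table and 1 to 13 with 1 library left out, the highest without Tsc2 KO replicate 3. In the KspCre cohort DESeq2 called 1 in place of 0 for this interaction. For the KspCre DKO against Tsc2 KO, 0 became 2 without the filter, 5 in DESeq2 and 0 to 1 with 1 library left out. For the KspCre DKO against control, 5 became 2 with only the groups compared, 10 in DESeq2 and 0 to 3 with 1 library left out. For the DKO against control with vehicle, 5 became 1 with only the groups compared and 1 to 5 with 1 library left out. For rapamycin in the DKO, 3 became 6 in DESeq2 and 1 to 3 with 1 library left out. The cause of these changes was not tested.

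With the replicate number as a block, the count for the KspCre DKO against control became 2 in place of 5, and the other counts stayed within 1.5 times, at 22, 12 and 31 for the Tsc2 KO against control in the CaggCreERT2, KspCre and vehicle-treated cohorts. Among the members' values in all comparisons, 12 lost and 7 gained a call under this replicate block. Deviations of same-numbered libraries from their group means had median correlations of 0.00881, -0.0400 and -0.00502 in the 3 cohorts, with minima of -0.173, -0.293 and -0.361 and maxima of 0.126, 0.246 and 0.358. The chi-square per gene between replicates was at least 16.4, and how far depth or the 3 libraries a group limited the calls was not tested. The confounding of sex with genotype in the CaggCreERT2 cohort and the 4 libraries with 2 names are further limits.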
